A study of Mus musculus with 2 samples.

Results

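The G1 cyclins, their kinases and the RB family are the genes that decide whether a cell leaves G1 and copies its DNA. The 10 genes described here were taken by symbol: *Ccnd1*, *Ccnd2* and *Ccnd3* for the D cyclins, *Ccne1* and *Ccne2* for the E cyclins, *Cdk2*, *Cdk4* and *Cdk6* for their kinases, and *Rb1* and *Rbl1* for the RB family. All 10 were among the 21878 gene symbols of the deposited files, and all 10 passed the minimum of 20 counts summed over both libraries that 13027 genes passed. The 2 libraries came from polyA RNA of liver of FVB/N mice, 1 with TSA and 1 with no treatment (untreated), in a study of hepatocellular carcinoma driven by c-Myc. Both groups had received c-Myc by hydrodynamic injection, a fast tail vein injection that takes DNA into some of the hepatocytes, so neither is a liver without c-Myc. The labels do not spell out TSA, and give neither its dose and duration nor the age, sex and number of animals behind a library, nor whether tumour or surrounding liver was taken.

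As background, growth signals raise the D cyclins, which bind CDK4 and CDK6, and the E cyclins bind CDK2. Both kinds of kinase add phosphate to the RB family proteins, which otherwise hold back the E2F transcription factors and with them the genes of DNA synthesis. In adult liver most hepatocytes rest outside the cycle, and cyclin D1 is known to rise when hepatocytes re-enter it after part of the liver is removed. *Ccne1*, *Ccne2*, *Cdk2* and *Rbl1* are themselves known targets of E2F, and *Cdk4* is a known target of MYC.

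Promoter sequences were looked up because several of the genes were lower together with TSA, and they are shown to let the known E2F and MYC motifs be read beside the counts. The RefSeq table (GRCm38.p6) held *Ccnd3*, *Ccne1*, *Cdk2*, *Cdk4*, *Cdk6* and *Rbl1*, 6 of the 10 genes, and also *Rbl2*, the remaining RB family gene. The 250 bases before each annotated start were searched on both strands for CACGTG, the E-box that MYC with its partner MAX can bind, and for 3 forms of the E2F site (TTTCCCGC, TTTGGCGC and TTTCGCGC), none of which overlaps another motif in the sequences shown. The *Cdk4* window held the E-box 4 times, in capitals in the sequence from chr10:127063285-127063533 on the plus strand, which ends just before the annotated exon.
Cdk4: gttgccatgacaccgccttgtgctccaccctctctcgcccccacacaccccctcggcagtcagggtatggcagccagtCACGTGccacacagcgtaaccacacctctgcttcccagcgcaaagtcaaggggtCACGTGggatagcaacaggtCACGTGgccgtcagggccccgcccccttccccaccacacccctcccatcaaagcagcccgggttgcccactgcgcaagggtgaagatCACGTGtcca
The *Rbl1* window held 1 E2F site, TTTCGCGC, in capitals in the 100 bases nearest the start at chr2:157204535-157204634 on the minus strand.
Rbl1: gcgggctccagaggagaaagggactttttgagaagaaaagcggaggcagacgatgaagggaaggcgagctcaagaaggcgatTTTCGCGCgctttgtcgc

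Of all 32851 promoter windows in that table, 6.02% held an E-box, 7 windows held at least 4, and 1.53% held any of the 3 E2F forms. *Cdk2* held TTTCCCGC once, starting 140 bases before the annotated start (position -140) and on the opposite strand, and *Cdk6* held 1 E-box at position -220. The windows of *Ccne1*, *Rbl2* and both starts of *Ccnd3* held none of these letter strings. A match is a description of the letters, and nothing was measured here about binding.

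Total counts were 17088227 in the TSA library and 17281523 in the untreated library. Ratios are TSA over untreated after scaling by TMM, a method that assumes most genes do not differ, and the 95% interval in parentheses covers counting error only. With 1 library per group there is no replicate check and no test, so "higher" and "lower" mean a ratio of at least 2-fold with an interval that excludes 1. The list of 12 common reference genes did not settle the scale, since 2 were higher and 7 lower with a median log2 ratio of -1.19; total counts gave 2 and 9 calls in those directions. Total count scaling places every ratio 1.80-fold (0.85 on the log2 scale) further down, and its counts of calls, or the value of a named gene whose call it changes, are given beside the results. The hepatocyte markers checked the tissue label: *Alb*, *Apoa1*, *Apob*, *Ttr*, *Trf*, *Hnf4a*, *Cps1* and *Cyp2e1* were detected in both libraries.

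Of the 10 genes 2 were higher, against 26.0% of all tested genes, and 6 were lower, against 27.4%. The share of higher genes was thus near the background and the share of lower ones was above it. With total counts 2 were higher, against 16.0% of tested genes, and 7 lower, against 48.7%. Over all tested genes the higher ones made up 48.6% of calls under TMM and 24.7% under total counts. The median log2 ratio of the 10 genes was -1.30, beside -0.11 for all tested genes. Ratios as large as that of *Ccnd1* were uncommon, since 96.6% of genes had a smaller one, and 32 other genes lay within 0.1 log2 units of it; 554 other genes lay that close to *Cdk6*.

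**Figure D1:**
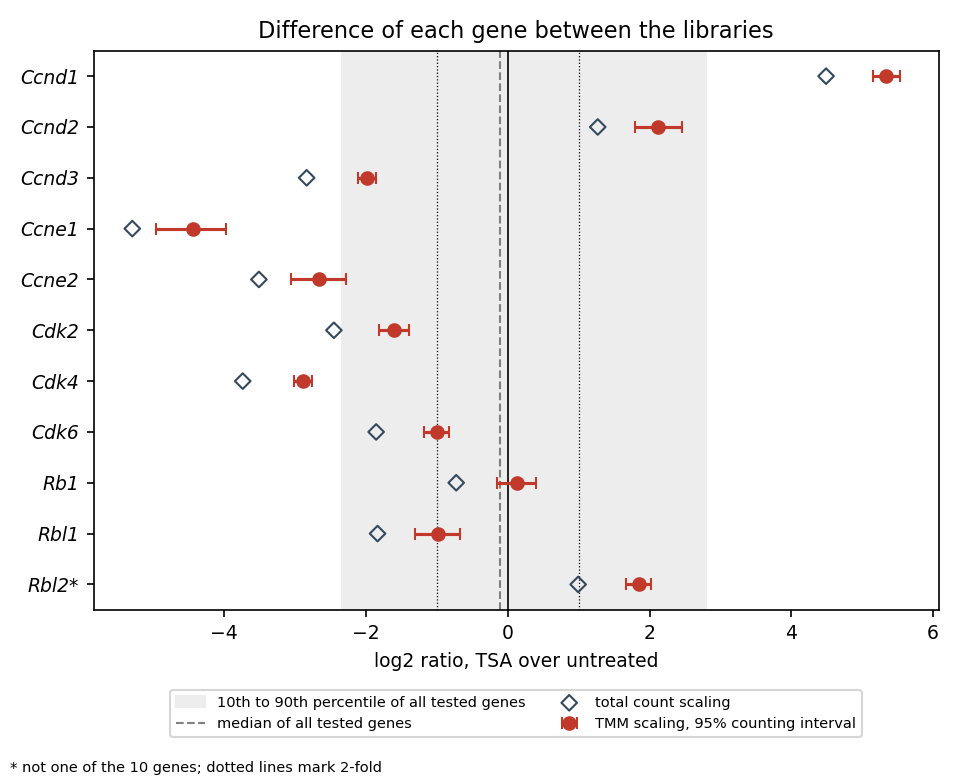
Log2 ratio of TSA over untreated for each gene with TMM scaling (red, bars are 95% counting intervals) and with total count scaling (open diamonds); the grey band is the 10th to 90th percentile of all 13027 tested genes with TMM and the dotted lines mark 2-fold. With TMM, Ccnd1 lies above the band and Ccne1, Ccne2 and Cdk4 lie below it, and Rb1 crosses equality when the scaling changes.

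The D cyclins changed places. *Ccnd1*, for cyclin D1, had 5267 counts (79.6 FPKM) with TSA and 237 counts (3.54 FPKM) without treatment, and was 40.6-fold (35.6 to 46.4) higher. *Ccnd3*, for cyclin D3, had 625 counts (14.6 FPKM) with TSA and 4516 counts (105 FPKM) without treatment, and was 3.96-fold (3.64 to 4.31) lower. These genes code for partners of the same kinases, and they lay on opposite sides of equality under every scaling tried. *Ccnd2*, for cyclin D2, was scarce in both libraries, at 255 counts (2.28 FPKM) with TSA and 107 counts (0.947 FPKM) without treatment, and was 4.35-fold (3.46 to 5.50) higher. Total count scaling left it above the threshold, at 2.41-fold.

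On the per-length FPKM scale *Ccnd1* made up 82.5% of the summed D cyclin level with TSA and 3.24% without treatment, and *Ccnd3* made up 15.2% with TSA and 95.9% without treatment. The balance of *Ccnd1* to *Ccnd3* within a library does not depend on how libraries are scaled. It was 5.43 with TSA and 0.0338 without treatment, a 161-fold (137 to 188) difference. The shares and the balance in each library depend on the gene lengths behind the FPKM, while the 161-fold difference does not. The summed D cyclin level was 96.5 FPKM with TSA and 109 FPKM without treatment. That sum stood at 1.60 times the untreated level with TMM and at 0.884 times with total counts, so with these lengths its direction depends on scaling. It also rests on the lengths themselves, which for *Ccnd3* were 2497 bases behind the FPKM and 8775 exon bases in GENCODE. Sums with GENCODE lengths were not computed, so the direction of the summed level is not settled here.

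**Figure D2:**
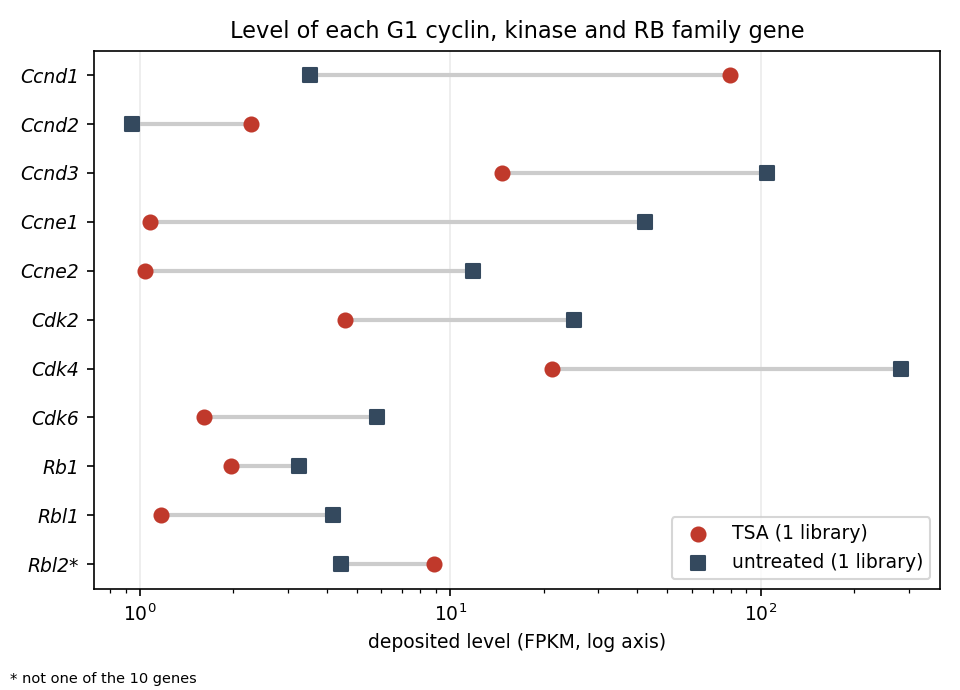
Deposited level in FPKM (log axis) of the 10 genes and of Rbl2 (starred) in the TSA library (red circles) and the untreated library (dark squares), with 1 library per group and no error bars. Ccnd1 lies far to the right with TSA (79.6 against 3.54 FPKM), while Cdk4, Ccnd3 and Ccne1 lie far to the left of their untreated levels.

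The E cyclins were both lower. *Ccne1*, for cyclin E1, had 36 counts (1.08 FPKM) with TSA and 1431 counts (42.3 FPKM) without treatment, and was 21.8-fold (15.7 to 31.2) lower. Only 3.05% of tested genes had a smaller ratio. *Ccne2*, for cyclin E2, had 61 counts (1.04 FPKM) with TSA and 703 counts (11.8 FPKM) without treatment, and was 6.31-fold (4.86 to 8.34) lower. The E cyclins differed by unequal amounts: *Ccne1* stood at 1.04 times *Ccne2* with TSA and at 3.57 times without treatment, so the balance shifted 3.45-fold (2.22 to 5.41) away from *Ccne1*. The ratio of summed D cyclin to summed E cyclin level was 45.6 with TSA and 2.01 without treatment. Like the D cyclin sum, the ratio in each library rests on the gene lengths behind the FPKM, and other lengths were not tried.

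All 3 kinase genes were below their untreated level, by amounts that also differed among them. *Cdk4*, for the main D cyclin kinase, had 516 counts (21.3 FPKM) with TSA and 6967 counts (284 FPKM) without treatment, and was 7.40-fold (6.76 to 8.11) lower. Without treatment 98.4% of tested genes had a lower FPKM than *Cdk4*, and with TSA 83.0% did. *Cdk2*, for the E cyclin kinase, had 207 counts (4.57 FPKM) with TSA and 1146 counts (25.0 FPKM) without treatment, and was 3.03-fold (2.61 to 3.53) lower. *Cdk6*, for the second D cyclin kinase, had 317 counts (1.61 FPKM) with TSA and 1161 counts (5.83 FPKM) without treatment.

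*Cdk6* was 2.01-fold (1.77 to 2.28) lower, just past the threshold, and 1.96-fold with DESeq2 size factors, just short of it. *Cdk4* exceeded *Cdk6* in both libraries, 13.2 times with TSA and 48.7 times without treatment on the FPKM scale, a 3.69-fold (3.15 to 4.31) shift of the balance away from *Cdk4*. Against *Cdk2* the balance of *Cdk4* shifted by 2.44-fold (2.04 to 2.91) in the same direction. Summed *Cdk4* and *Cdk6* stood at 22.9 FPKM with TSA and 290 FPKM without treatment. Summed D cyclin transcripts stood at 4.22 times the CDK4 and CDK6 transcripts with TSA and at 0.377 times without treatment, per length.

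**Figure D3:**
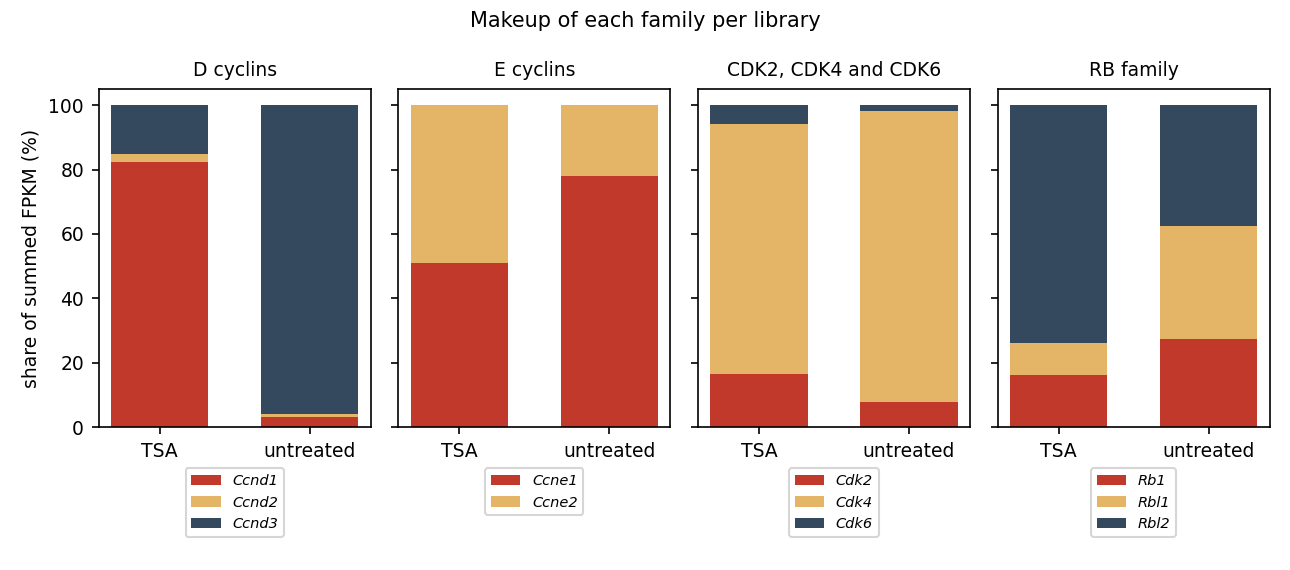
Share (%) of each gene in the summed FPKM of its family, TSA library left and untreated library right in each panel, 1 library per group. Ccnd1 fills 82.5% of the TSA bar of the D cyclins and Ccnd3 fills 95.9% of the untreated bar, and in the RB family panel Rbl2 takes 73.9% with TSA and 37.5% in the untreated bar.

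The RB family genes differed by unequal amounts, with none called lower with TMM and none called higher with total counts. *Rb1*, for the retinoblastoma protein, had 175 counts (1.96 FPKM) with TSA and 293 counts (3.25 FPKM) without treatment. Its ratio was 1.09 (0.899 to 1.32) with TMM and 0.604 with total counts, so it was called in neither direction and its sign depends on scaling. *Rbl1*, for the RB relative that rises in cycling cells, had 111 counts (1.17 FPKM) with TSA and 401 counts (4.18 FPKM) without treatment. It stood 1.98-fold (1.60 to 2.47) below the untreated level, just short of the threshold with TMM, and 3.57-fold below with total counts, where it was called lower.

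*Rbl2*, for the relative that dominates in resting cells, is not one of the 10 genes and is given to complete the family. It had 748 counts (8.89 FPKM) with TSA and 380 counts (4.46 FPKM) without treatment, 3.59-fold (3.17 to 4.08) higher with TMM and 1.99-fold, just short of the threshold, with total counts. The balance of *Rbl1* to *Rbl2* was 0.132 with TSA and 0.937 without treatment, a 7.11-fold (5.54 to 9.16) shift towards *Rbl2*. The balance of *Rb1* to *Rbl1* was 1.68 with TSA and 0.777 without treatment, a 2.16-fold (1.61 to 2.89) shift towards *Rb1*. That of *Rb1* to *Rbl2* was 0.221 with TSA and 0.728 without treatment, a 3.30-fold (2.62 to 4.15) shift towards *Rbl2*. The family summed to 12.02 FPKM with TSA and 11.9 FPKM without treatment, which is 1.01 times the untreated level with total counts and 1.82 times with TMM.

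The order of the deposited FPKM levels differed as well. With TSA it ran from *Ccnd1* over *Cdk4*, *Ccnd3*, *Cdk2*, *Ccnd2*, *Rb1*, *Cdk6*, *Rbl1* and *Ccne1* to *Ccne2*, and without treatment from *Cdk4* over *Ccnd3*, *Ccne1*, *Cdk2*, *Ccne2*, *Cdk6*, *Rbl1*, *Ccnd1* and *Rb1* to *Ccnd2*. With TSA the exact Poisson intervals of neighbours met for *Ccnd2* and *Rb1*, for *Rb1* and *Cdk6*, and among *Rbl1*, *Ccne1* and *Ccne2*. Without treatment they met for *Rbl1* and *Ccnd1* and for *Ccnd1* and *Rb1*. *Ccnd1* was the most abundant of the 10 genes with TSA and stood at rank 8 without treatment. These orders rest on the gene lengths behind the FPKM, which the intervals do not cover. GENCODE exon lengths were longer by unequal amounts, such as 8775 against 2497 bases for *Ccnd3* and 3495 against 3435 for *Ccne2*. The order with GENCODE lengths was not tested.

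The tested inhibitors that bind these kinases were lower or not called, by unequal amounts. Of 7 genes 5 had enough counts, of which 3 were lower and none was higher. For this list and those below, the shares over all tested genes were 26.0% higher and 27.4% lower with TMM. With total counts those shares were 16.0% and 48.7%. *Cdkn1c*, for the inhibitor p57, had 43 counts with TSA and 3350 without treatment and was 42.7-fold lower. *Cdkn1a*, for p21, was 3.23-fold lower and *Cdkn2d*, for an INK4 inhibitor of CDK4 and CDK6, 4.86-fold lower. *Cdkn1b*, for p27, stood 1.63-fold below and *Cdkn2c* at 1.07-fold of the untreated level, and neither was called. With total counts 4 inhibitors were lower, *Cdkn1b* among them at 2.95-fold, and *Cdkn2c* stood 1.69-fold below and uncalled. *Cdkn2a* had 1 count with TSA and 14 without treatment, too few to test. *Cdkn2b* had 0 counts with TSA, which allows up to 3, and 10 without treatment. Summed *Cdk2*, *Cdk4* and *Cdk6* stood at 1.73 times summed *Cdkn1a*, *Cdkn1b* and *Cdkn1c* with TSA and at 1.99 times without treatment, in FPKM.

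Downstream of the RB proteins, 9 of 10 E2F and DP genes were lower and none was higher, with a median log2 ratio of -1.67. *Tfdp1*, for the partner that E2F proteins need to bind DNA, was 6.60-fold lower and *E2f7*, for a repressor of the family, 6.93-fold lower. *E2f1*, for an activator, was 5.85-fold lower and *E2f4*, for the factor that works with the RB relatives in resting cells, 3.62-fold lower. *E2f6*, for a repressor that does not bind RB proteins, was the remaining member, at 1.61-fold of the untreated level and uncalled, or 1.12-fold below it with total counts.

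Of 18 E2F target genes of S phase entry 16 were lower and none was higher, with a median of -3.43. *Orc1*, for a subunit of the origin recognition complex, was 28.7-fold lower, and *Mcm6*, for a helicase subunit, 25.1-fold lower. *Tk1*, for thymidine kinase, stood 1.33-fold below the untreated level and was not called. With total counts all 18 targets were lower, *Tk1* by 2.40-fold. All 5 tested cyclins and kinase genes of S, G2 and M phase were lower, with a median of -5.73. *Ccnb1*, for cyclin B1, was 137-fold lower and *Cdk1* 50.6-fold lower. The smallest difference in that list, 41.6-fold for *Ccnf*, was larger with TMM than that of any of the 10 G1 and RB family genes. *Ccna1* had 0 counts in both libraries, which allows up to 3 in each.

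Of the 8 DREAM and MuvB genes, whose proteins join with the RB relatives and E2F4 to repress cell cycle genes or with MYBL2 and FOXM1 to activate them, 5 were lower and 1, *Rbl2*, was higher, against 5 lower and none higher with total counts. *Mybl2* was 99.95-fold lower, on 12 counts with TSA and 2189 without treatment, and *Foxm1* 49.6-fold lower. Of the shared core, *Lin9* and *Lin54* were 4.83-fold and 3.12-fold lower, and *Lin37* and *Lin52* were not called. Among 8 genes that control CDK phosphorylation 6 were lower and none higher, with a median of -1.76. *Cdc25a*, for the phosphatase that switches on CDK2, was 9.44-fold lower. The genes of opposing kinases differed: *Pkmyt1* was 11.3-fold lower, on 14 counts with TSA and 289 without treatment. *Wee1* stood 1.31-fold below the untreated level and was not called. With total counts all 8 of these genes were lower, *Wee1* by 2.37-fold.

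Genes for the turnover of G1 cyclins and their inhibitors were mixed, 1 higher, 4 lower and 5 neither, with a median of -0.30, and with total counts 7 were lower. *Skp2*, for the F-box protein that marks p27 for breakdown, was 40.3-fold lower. *Fbxw7*, for the F-box protein of cyclin E breakdown, stood 1.16-fold below the untreated level and was not called, and was 2.09-fold lower with total counts. *Fbxo4*, for an F-box protein linked to cyclin D1 breakdown, was 5.85-fold higher, on 170 counts with TSA and 53 without treatment. *Fbxo31* and *Ambra1*, also linked to cyclin D breakdown, stood at 1.03-fold and 1.29-fold of the untreated level. Both had more counts than *Fbxo4* and were not called with TMM or with total counts. Cyclins and kinases of transcription and other roles differed less, with a median of 0.03. Of 23 genes 5 were higher, 2 lower and 16 neither, against 26.0% higher and 27.4% lower over all tested genes. With total counts none was higher and 9 were lower, against 16.0% and 48.7% over all tested genes. *Ccni* was the most abundant of them with TSA, *Cdk18* had the highest ratio at 3.55-fold higher, and *Ccng1*, for a p53 target, was 3.06-fold lower.

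**Figure D4:**
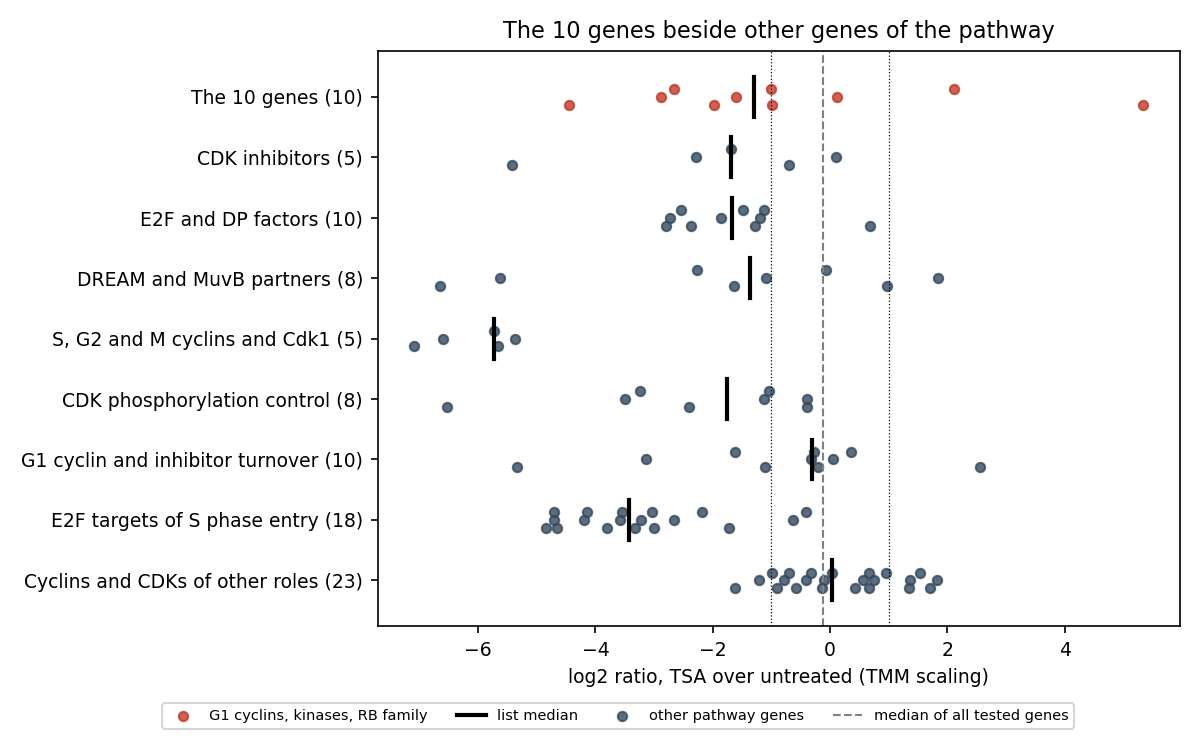
Log2 ratio of TSA over untreated (TMM) of the 10 genes (red) and of the tested genes of 8 pathway lists (dark), with the number tested in parentheses, a black bar at each list's median and a dashed line at the median of all tested genes. The 10 genes spread from -4.44 to 5.34, wider than any of the 8 lists, and the S, G2 and M cyclins and Cdk1 all lie below -5.

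Mouse *Myc* had 763 counts (18.6 FPKM) with TSA and 55 counts (1.33 FPKM) without treatment. It was 25.3-fold higher with TSA, and *Cdk4*, with the E-boxes shown above, was 7.40-fold lower. Any link between these ratios was not tested. The labels do not give the species of the injected c-Myc sequence, and the mouse gene's count may not hold all c-Myc transcripts.

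Markers of cell types differed between the libraries beside these genes, and the calls below are with TMM unless total counts are named. The summed levels in CPM are counts relative to the library total, so they use total count scaling. TMM places every ratio of TSA to untreated 1.80-fold higher. With TMM the Kupffer cell and macrophage sum and the stellate cell and fibroblast sum would lie above their untreated levels. The direction of those sums therefore depends on scaling. Over all tested genes 26.0% were higher and 27.4% lower with TMM, and 16.0% and 48.7% with total counts. All 8 hepatocyte markers were higher, 7 with total counts, where *Hnf4a* was not called, with 134591 CPM summed with TSA and 13328 CPM without treatment. Of 8 endothelial markers 6 were higher and none lower (373 CPM summed with TSA and 129 CPM without treatment), and of 8 Kupffer cell and macrophage markers 5 were higher and 2 lower (524 CPM with TSA and 833 CPM without treatment). Stellate cell and fibroblast markers were 4 higher and 2 lower of 8 (435 CPM with TSA and 569 CPM without treatment). Of 6 cholangiocyte markers tested 3 were higher and 2 lower (57.0 CPM with TSA and 106 CPM without treatment), with *Cftr* at 0 with TSA. All 5 erythroid markers tested were higher (264 CPM with TSA and 94.3 CPM without treatment), with *Hba-a2* at 0 with TSA. B cell markers summed to 7.72 CPM with TSA and 1.22 CPM without treatment, and all 5 tested were higher. Neutrophil markers summed to 8.66 CPM with TSA and 4.34 CPM without treatment, with *Ly6g* at 0 in both libraries. T and NK cell markers summed to 2.98 CPM with TSA and 2.43 CPM without treatment. With total counts endothelial markers were 4 higher and 1 lower, Kupffer cell and macrophage markers 3 higher and 3 lower, stellate cell and fibroblast markers 3 higher and 4 lower, and cholangiocyte markers 2 higher and 3 lower, so the balance of calls in the last 2 lists turned with the scaling. The B cell and erythroid calls were 5 higher under both scalings. The part of these cell types in the ratios of the G1 genes was not tested. In tissue RNA fewer cells of a type and less RNA per cell cannot be told apart.

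Some of the genes share exon sequence with a neighbour on the other strand in GENCODE M21, and the sources used here do not say whether reads were counted by strand. *Ccnd1* overlaps *Oraov1* over 1100 bases, and *Oraov1* had 181 counts with TSA and 192 without treatment. That is far fewer than the 5267 counts of *Ccnd1* with TSA, but near its 237 counts without treatment. *Cdk4* overlaps *Tspan31* over 641 bases, and *Tspan31* had 4121 counts with TSA and 2225 without treatment, the opposite direction to *Cdk4*. *Ccnd3* overlaps *Bysl* over 361 bases and *Ccne2* overlaps *Ints8* over 609 bases, and both neighbours had fewer counts with TSA (404 and 411) than without treatment (1589 and 1569). *Rb1* overlaps *Rcbtb2* and *Lpar6*, with 511 and 532 counts with TSA and 1278 and 452 counts without treatment. Reads in the shared stretches cannot be assigned from the counts, and their part in the ratios was not tested.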

How the data were processed

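PolyA RNA of 2 liver libraries, 1 per group, was analysed. Per the submitters' processing notes the tools included Trimmomatic, HISAT2, Bowtie2 and DESeq. Roles, versions, genome build, annotation, counter and strand mode: not given in the sources used here. Gene counts as deposited are unscaled whole numbers for each gene symbol, per the file headers. The deposited FPKM values are the same counts per length and per library total, since for each of the 14271 genes detected in both libraries they imply 1 common length (tolerance 0.1 base). Depth was 17088227 counts with TSA and 17281523 without treatment.

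Counts were scaled by TMM (edgeR 4.0.16, R 4.3.3), with factors of 0.744 for TSA and 1.34 for untreated. Ratios carry exact conditional binomial (Clopper-Pearson) 95% intervals, balances of 2 genes exact conditional odds ratio intervals, and levels exact Poisson intervals. These cover counting error only, as 1 library per group shows no spread between libraries. No molecular identifiers are described that would tell molecules from PCR copies, so the intervals may be too narrow even for counting error. A count of 0 was set to 3 for a ratio. Calling was tested on simulated Poisson counts in which few genes changed. That simulation held no spread between libraries of a group and could not check the scaling where many genes differ. Alternatives were DESeq2 1.42.0 size factors, upper quartiles, total counts, FPKM with 0.1 added, other thresholds and count minimums, a prior count of 2 and, for balances, thinning of the untreated library to the depth of the TSA library. Python 3.11.15 with scipy 1.17.1 was used.

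The 10 genes and the gene lists were chosen with earlier results of these data known. Genes named are the 10, *Rbl2*, and in each list, among genes with at least 50 summed counts, the most abundant and the called genes of highest and lowest ratio; in lists of at most 10 genes any member may be named. *Tk1* and *Myc* were named after their values were seen, and 1 list gene is not reported here by name. No gene is named as most like another, since 2 libraries give 1 ratio per gene.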

Additional observations from a re-analysis of the deposited data

How the results depend on the processing

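No paired analysis was possible because each group has 1 library, and no library could be left out. The 2 genes called higher were 2 under every alternative tried, and the 6 called lower ranged from 3 at a 4-fold threshold to 7. *Rb1* reversed, uncalled, at 0.604 with total counts and 0.616 with FPKM plus 0.1. *Cdk6*, at 2.01-fold lower, was uncalled with DESeq2 size factors, upper quartiles, a prior count of 2, a 4-fold threshold and an interval wholly past 2-fold. *Rbl1* was called lower with total counts, FPKM and a 1.5-fold threshold. The 9 balances kept their direction under all 3 alternatives tried for each (FPKM plus 0.1, a prior count of 2 and thinning). Gene length and library total cancel in a balance, and thinning acts on both genes alike. These alternatives could therefore hardly have changed a direction, and are no check of it. Genes called higher over the whole table numbered 3382, against 2084 with total counts, 1983 with FPKM and 1951 at 4-fold, and genes called lower 3573, against 6339, 6186 and 1640 in the same order. Of the 8 pathway lists 7 genes were higher, against 1 with total counts, 1 at 4-fold and 13 at 1.5-fold. Depth limits the E cyclins most, with 36 and 61 counts with TSA.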
